A study of Mus musculus with 6 samples.

Results

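The genes described here are the 8 genes of the MHC class II presentation machinery that carry the symbols Cd74, H2-Aa, H2-Ab1, H2-Eb1, H2-DMa, H2-DMb1, H2-DMb2 and Ciita, out of 22623 genes in the feature list of the series. They were chosen by symbol, and all 8 were listed in each of the 6 matrices. RNA of single nuclei (snRNA-seq) was counted in tumors that grew for 24 days under the flank skin of mice from injected TC1 cells, which are of a lung tumor line of the mouse. All mice were of 1 conditional line on a C57BL/6 background, with both copies of Slc16a7, which encodes the monocarboxylate transporter MCT2, flanked by loxP sites, and with a Cre recombinase that tamoxifen switches on. At 8 weeks of age the knockout (KO) mice received tamoxifen for 5 days and the control (CO) mice received vehicle, and tumor cells were injected 2 days later. There were 3 CO and 3 KO libraries. The deletion was systemic, so no cell type was targeted, the control mice carried the same alleles without tamoxifen, and the TC1 cells were of 1 line and carried no induced deletion. The sample labels give lung as the tissue, whereas the study's methods describe subcutaneous tumors.

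MHC class II molecules show peptides from outside the cell to CD4+ T cells. Dendritic cells, macrophages and B cells make them constantly, and many other cells make them after interferon gamma. The α chain H2-Aa pairs with the β chain H2-Ab1, the invariant chain Cd74 fills and escorts the new pair to the endosome, and the DM heterodimer of H2-DMa with an H2-DMb chain swaps the remaining fragment of Cd74 for a peptide. H2-Eb1 encodes the β chain of a second pair, whose α chain is not made in C57BL/6 mice. Ciita encodes the coactivator that switches the whole set on. It binds no DNA itself but docks on the RFX, CREB and NF-Y factors bound to short boxes in front of each gene.

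In the annotation GENCODE vM21 of the mouse genome build GRCm38, 6 of the genes lay together on chromosome 17. H2-DMa spanned chr17:34119541-34139101, H2-DMb2 chr17:34143307-34151555, H2-DMb1 chr17:34153072-34160230, H2-Ab1 chr17:34257689-34269419 and H2-Eb1 chr17:34305867-34316674 on the plus strand, and H2-Aa spanned chr17:34282744-34287823 on the minus strand. Ciita lay on chromosome 16 (chr16:10480059-10528418, plus strand) and Cd74 on a chromosome apart from these. Part of the H2-DMa gene model overlapped Brd2 on the opposite strand over 3094 bases, Ciita overlapped Dexi on the opposite strand over 25888 bases, and H2-Eb1 overlapped the antisense gene Gm20513 over 2204 bases. How counting treated the strand is not given in the sources used here, so counts of these 3 genes may hold molecules of their partners. H2-DMb1 and H2-DMb2 are close copies of each other, and their counts are uncertain for that reason.

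Promoter sequence of RefSeq (GRCm38.p6) was found for 5 of the 8 genes, and none was found for H2-Ab1, Ciita and Cd74. The windows below are the 150 bases in front of the annotated start, 5′ to 3′ on the strand of the gene. Capitals mark 2 motifs that were searched on both strands, the letters CCAAT of the Y box that NF-Y binds, which read ATTGG when they lie on the other strand, and the letters AACNGATG within the X box that the RFX complex binds. The 2 motifs did not overlap each other.
H2-Aa, chr17:34287824-34287973, minus strand: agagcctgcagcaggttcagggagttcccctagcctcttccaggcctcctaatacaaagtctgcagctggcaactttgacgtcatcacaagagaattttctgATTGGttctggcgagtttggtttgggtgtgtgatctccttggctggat
H2-Eb1, chr17:34305717-34305866, plus strand: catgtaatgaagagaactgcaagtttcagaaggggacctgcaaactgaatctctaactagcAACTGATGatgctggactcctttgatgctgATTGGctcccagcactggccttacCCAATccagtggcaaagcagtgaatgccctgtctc
H2-DMb1, chr17:34153041-34153190, plus strand: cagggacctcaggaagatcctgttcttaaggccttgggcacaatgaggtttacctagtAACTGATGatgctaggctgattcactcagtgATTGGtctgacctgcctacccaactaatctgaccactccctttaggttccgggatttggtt
H2-DMb2, chr17:34145099-34145248, plus strand: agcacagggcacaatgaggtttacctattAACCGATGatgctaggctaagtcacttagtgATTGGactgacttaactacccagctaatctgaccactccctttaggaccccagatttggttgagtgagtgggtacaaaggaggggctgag
H2-DMa, first start, chr17:34122682-34122831, plus strand: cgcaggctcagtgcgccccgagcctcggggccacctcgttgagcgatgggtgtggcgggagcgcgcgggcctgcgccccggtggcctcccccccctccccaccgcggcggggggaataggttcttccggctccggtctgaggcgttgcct
H2-DMa, second start, chr17:34125368-34125517, plus strand: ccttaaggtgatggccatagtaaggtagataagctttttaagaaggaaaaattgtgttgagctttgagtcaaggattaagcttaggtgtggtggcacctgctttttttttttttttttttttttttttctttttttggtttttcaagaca

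CCAAT was present in 24.5% and AACNGATG in 1.14% of the 32851 promoter windows of this length, and both were present in 0.253%. H2-Eb1, H2-DMb1 and H2-DMb2 held both. Their reversed CCAAT began 59, 61 and 90 bases before the start, each time downstream of AACNGATG, which began 89, 92 and 121 bases before it. H2-Aa held CCAAT alone, 48 bases before the start. Neither window of H2-DMa held either set of letters. These windows stand before starts at chr17:34122832 and chr17:34125518, in a gene model that runs to chr17:34139101. Whether H2-DMa transcripts of these nuclei began there or further downstream was not tested. The part of these letters in the levels of any member was not tested. A match is a description of these letters and not of binding.

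After filters, 17514 nuclei were kept, between 1763 and 4587 per library, with a median of 1094 to 4874 unique molecular identifiers (UMIs, counted molecules) each. A total of 109 kept nuclei carried a barcode that another library also held, with 15 to 19 shared by each pair of libraries. Slc16a7 was counted at 8.58, 11.6 and 21.0 counts per 1000000 UMIs (CPM) in CO replicates 1, 2 and 3 and at 15.6, 6.92 and 31.5 CPM in KO replicates 1, 2 and 3. The groups overlapped. Which exons were deleted is not given in the sources used here, and counts from the 3′ end of a transcript can come from outside them, so these values do not check the labels. Nuclei were put in classes by counts of marker genes that included none of the 8 genes. The myeloid class (3942 nuclei) was divided into 1107 Mrc1-positive nuclei with a UMI of Mrc1, the mannose receptor of tissue macrophages, and none of Ccr2, and 436 Ccr2-positive nuclei with a UMI of Ccr2, the chemokine receptor of recruited monocytes, and none of Mrc1. Their summed myeloid markers lay between 3042 and 4172 CPM in every library against 32.2 to 88.5 CPM in tumor nuclei, and 7 of the 8 myeloid markers were detected, with Itgam at 0. The classes also comprised 93 dendritic nuclei (all 10 markers detected), 73 endothelial nuclei (all 10), 8562 tumor nuclei (all 12) and 384 T/NK nuclei. KO replicate 2 held 61 Mrc1-positive, 7 Ccr2-positive and 4 dendritic nuclei, the smallest numbers of any library.

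By mean level over the 6 libraries, Ciita was highest in dendritic and Ccr2-positive nuclei and lower in Mrc1-positive nuclei. It had 1 UMI in endothelial nuclei, which gives no order against tumor nuclei. By the same mean, Cd74, H2-Aa, H2-Ab1 and H2-Eb1 were highest in Ccr2-positive and dendritic nuclei, lower in Mrc1-positive nuclei, lower again in endothelial nuclei and lowest in tumor nuclei. In this order Cd74 reached 2248 ± 1756 CPM (SD, n = 6) in Ccr2-positive, 1841 ± 1914 in dendritic, 751 ± 451 in Mrc1-positive, 463 ± 308 in T/NK, 279 ± 128 in endothelial and 84.8 ± 41.5 in tumor nuclei. Each neighboring pair in this order overlapped over libraries except endothelial and tumor nuclei, and these overlapped too through KO replicate 2, where endothelial Cd74 was 58.3 CPM. The spread between libraries was as large as the mean in dendritic nuclei, whose sums held only 19068 to 35330 UMIs per library. The T/NK level is given as that of a class that should lack these genes.

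**Figure D1:**
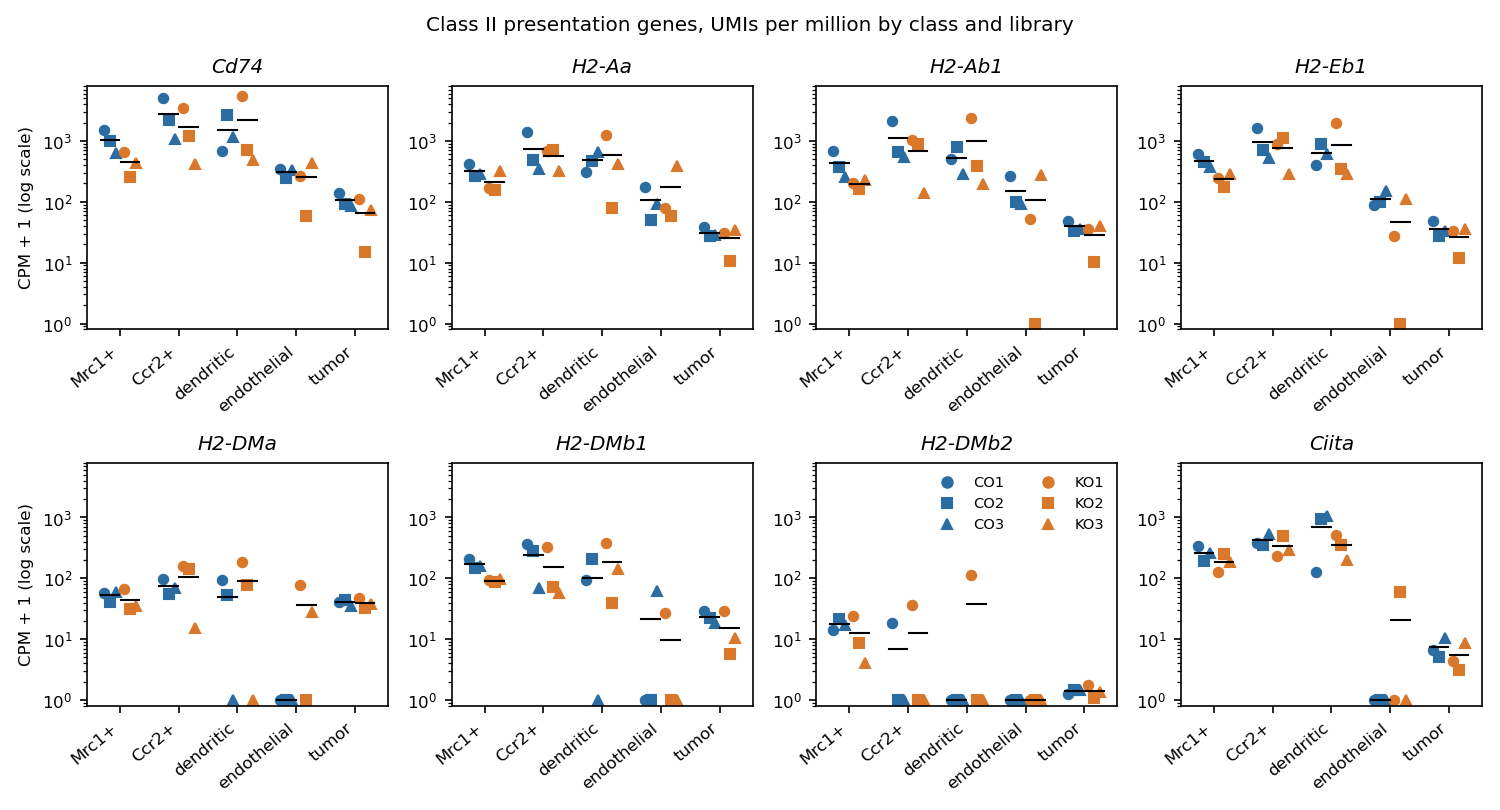
CPM plus 1 (log axis) of each of the 8 genes in Mrc1-positive myeloid, Ccr2-positive myeloid, dendritic, endothelial and tumor nuclei, with 1 point per library (blue CO, orange KO, shape by replicate) and bars at the group means of 3 libraries. For Cd74, all 18 sums of myeloid and dendritic nuclei lie above 250 CPM and all 6 tumor sums at or under 138 CPM, whereas H2-DMa lies between 31.9 and 46.1 CPM in tumor nuclei, within its range of 30.8 to 65.5 CPM in Mrc1-positive nuclei.

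The first question was how the genes of this pathway stood in KO against CO tumors, class by class. In Mrc1-positive nuclei, the invariant chain Cd74 stood at 1512, 1015 and 630 CPM in CO replicates 1, 2 and 3 and at 662, 255 and 434 CPM in KO replicates 1, 2 and 3, the order of replicates in all values that follow. KO replicate 1 lay just above the lowest CO library, so the groups overlapped, with means of 1053 ± 442 (SD, n = 3) in CO and 450 ± 204 (n = 3) in KO. H2-Ab1, the β chain of the main class II pair, stood at 676, 379 and 253 CPM in CO and at 204, 162 and 228 CPM in KO. Every KO library lay below every CO library. Its α-chain partner H2-Aa stood at 412, 260 and 289 CPM in CO and at 166, 154 and 323 CPM in KO. KO replicate 3 exceeded 2 of the CO libraries, so the 2 chains of the pair did not separate the groups alike. H2-Eb1 stood at 599, 443 and 368 CPM in CO and 246, 177 and 289 CPM in KO, again with no overlap.

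Among the peptide-exchange genes, H2-DMb1 stood at 204, 145 and 158 CPM in CO and 91.3, 84.8 and 95.4 CPM in KO, without overlap and with an SD of 5.33 CPM in KO. H2-DMa, its partner chain, stood at 56.9, 40.5 and 59.1 CPM in CO and 65.5, 30.8 and 33.9 CPM in KO. KO replicate 1 was the highest of the 6 libraries and the groups overlapped. H2-DMb2 was counted with 28 UMIs in all 1107 nuclei and was removed by the low-count filter, and without that filter its log2 fold change was −0.35 (SE 0.69, edgeR Benjamini-Hochberg adjusted p = 0.96). The coactivator Ciita stood at 335, 188 and 259 CPM in CO and 124, 255 and 185 CPM in KO, and KO replicate 2 lay within the CO range.

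In the edgeR quasi-likelihood test of sums per library, a gene was called at a log2 fold change of at least 0.58 in size and a Benjamini-Hochberg adjusted p of at most 0.05. None of the 6320 genes tested in Mrc1-positive nuclei was called by edgeR (0%) or by DESeq2, although 336 had an unadjusted edgeR p under 0.05. No member was therefore called. The log2 fold change was −1.18 for Cd74 (SE 0.37), −1.10 for H2-Ab1 (SE 0.34), −0.94 for H2-Eb1 (SE 0.27) and −0.87 for H2-DMb1 (SE 0.26), and edgeR's Benjamini-Hochberg adjusted p of these 4 lay between 0.735 and 0.754. H2-Aa (−0.53, SE 0.32), Ciita (−0.51, SE 0.31) and H2-DMa (−0.15, SE 0.39) were smaller in size. All 7 members tested were below 0, with a median of −0.87 against −0.01 over all genes tested. H2-Ab1, H2-Eb1 and H2-DMb1 were 3 of 7 members whose KO libraries all lay below the CO libraries, where 5.98% of all genes tested did so. With 3 against 3 libraries an exact permutation test cannot give a p below 0.1.

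KO replicate 1 decided the calls. Without it, 490 of 6548 genes were called in Mrc1-positive nuclei, 309 of them lower in KO (4.72%), and 3 of 7 members were among these. Cd74 fell by 1.52 on the log2 scale (SE 0.30, edgeR Benjamini-Hochberg adjusted p = 0.0031), H2-Ab1 fell by 1.07 (SE 0.31, adjusted p = 0.037) and H2-Eb1 fell by 0.91 (SE 0.26, adjusted p = 0.034), whereas H2-DMb1 at −0.84 was not called (adjusted p = 0.073). Leaving out any other library called 0 genes. Cd74 was also called lower when the filter on low counts was dropped (−1.17, adjusted p = 0.019, 33 genes called).

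Other measures moved with the same libraries. UMIs of the 12 tumor markers per 10000 UMIs in Mrc1-positive nuclei were 5.09, 7.61 and 7.12 in CO and 6.86, 17.04 and 20.2 in KO, so KO replicates 2 and 3 stood apart and KO replicate 1 stood with the controls. The 10 macrophage genes used as a gauge of free RNA (among them Lyz2, Apoe and C1qa) summed to 6273, 5852 and 4263 CPM in CO and 6467, 2607 and 3180 CPM in KO. That sum was also lowest in KO replicates 2 and 3. The gauge genes had a median log2 fold change of −0.42 with 7 of 9 below 0, and 8 interferon-induced genes had a median of −0.59 with 8 of 8 below 0. The part of free RNA, tumor transcripts and interferon in the members' values was not tested.

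**Figure D2:**
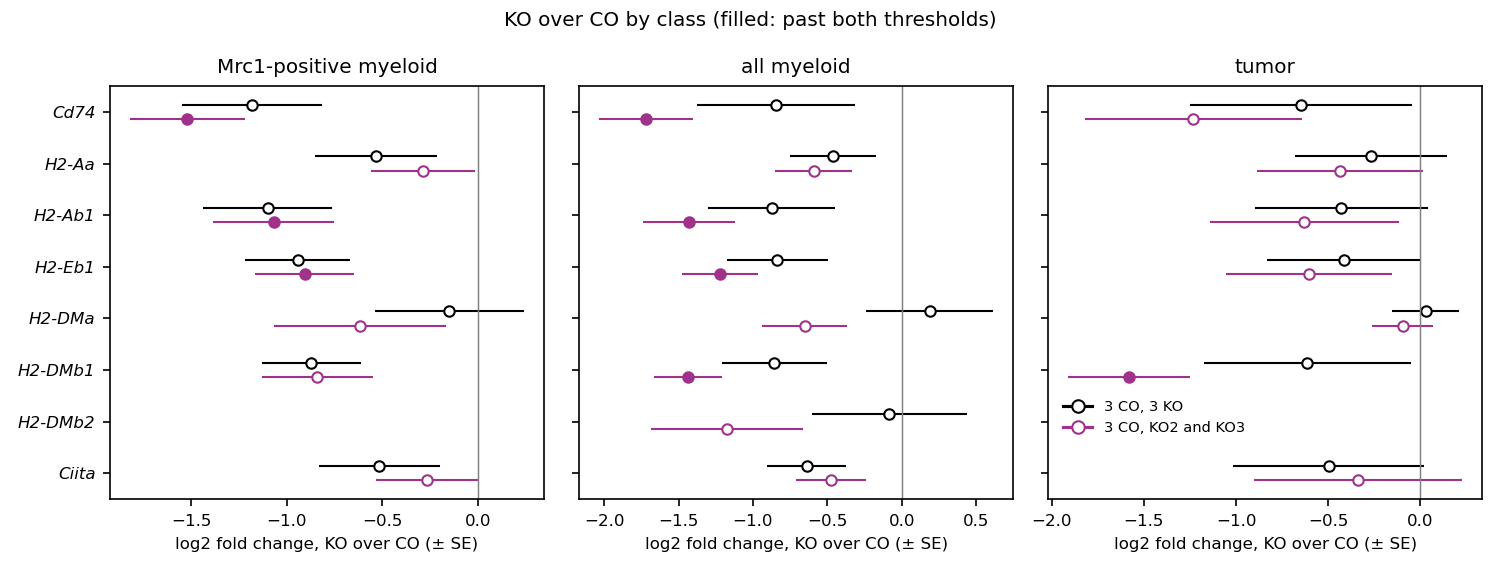
Log2 fold change of each member in KO over CO (points, bars are SE, edgeR) in Mrc1-positive myeloid, all myeloid and tumor nuclei, with all 3 KO libraries (black) and with KO replicates 2 and 3 alone (purple), filled where both thresholds were passed. With all libraries no point is filled, and without KO replicate 1 Cd74, H2-Ab1 and H2-Eb1 are filled in both myeloid panels and H2-DMb1 in the all-myeloid and tumor panels.

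The share of nuclei gave a second reading of the same libraries. In Mrc1-positive nuclei each thinned to 1000 UMIs, at least 1 UMI of the 8 genes was found in 80.0%, 77.3% and 81.3% of CO nuclei and in 65.3%, 47.3% and 71.4% of KO nuclei, with no overlap between groups. How many of all genes separated the groups in thinned shares was not counted, so no background stands beside this. By gene, the thinned shares of Cd74, H2-Ab1 and H2-Eb1 did not overlap, and those of H2-Aa, H2-DMa, H2-DMb1 and H2-DMb2 did. Before thinning the shares were 84.9%, 84.8% and 85.8% in CO and 75.8%, 63.9% and 85.9% in KO, and KO replicate 3, whose Mrc1-positive nuclei were deepest (median 1769 UMIs against 1239 to 1543 in the CO libraries), was then as high as the CO libraries. For Ciita the thinned shares were 20.7%, 16.3% and 19.4% in CO and 10.6%, 12.7% and 11.7% in KO. Unthinned they were 27.8%, 21.1% and 26.0% in CO and 14.4%, 18.03% and 24.7% in KO, and these overlapped. Mean thinned Ciita UMIs per nucleus also overlapped, at 0.324, 0.192 and 0.230 in CO and 0.131, 0.236 and 0.123 in KO. The thinned Ciita share of KO replicate 2 rested on 7 of 55 nuclei.

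In all 3942 myeloid nuclei as 1 class, an analysis added after the data were seen, edgeR called 0 of 9501 genes (0%) and DESeq2 called 7, none of them a member, and 517 genes had an unadjusted p under 0.05 in edgeR. The members' median log2 fold change was −0.74 with 7 of 8 below 0, and H2-DMa was above 0 at 0.19 (SE 0.43). H2-DMb1 was the 1 member of 8 whose KO libraries all lay below the CO libraries, beside 5.82% of all genes. Without KO replicate 1, 859 of 9517 genes were called lower (9.03%) and 4 of 8 members were among them. By edgeR with Benjamini-Hochberg adjustment these were Cd74 (−1.72, adjusted p = 0.0029), H2-DMb1 (−1.43, adjusted p = 0.0011), H2-Ab1 (−1.43, adjusted p = 0.0072) and H2-Eb1 (−1.22, adjusted p = 0.0057), and H2-DMa moved to −0.65, not called.

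Ccr2-positive, dendritic and endothelial nuclei had a library with fewer than 10 nuclei, so KO and CO were set side by side without a test. In Ccr2-positive nuclei, Cd74 stood at 5102, 2240 and 1087 CPM in CO and 3455, 1186 and 421 CPM in KO. Together the 8 genes reached 11097, 4800 and 3169 CPM in CO and 6832, 4605 and 1528 CPM in KO, and both groups spanned more than 3-fold with overlapping ranges. In dendritic nuclei the sum was 2221, 5979 and 3727 CPM in CO and 12204, 1977 and 1727 CPM in KO. KO replicate 1 alone exceeded every other library there, and the log2 ratio of group means changed from 0.42 to −1.10 without it. In endothelial nuclei the sum was 870, 485 and 727 CPM in CO and 520, 175 and 1221 CPM in KO, resting on 3 to 45 UMIs per library. T/NK nuclei, which should lack these genes, were not tested either. H2-Eb1 stood there at 368, 135 and 182 CPM in CO and 40.0, 28.5 and 118 CPM in KO, without overlap. H2-DMb1, with 20 UMIs in that class, did not overlap either, and the other members did. How many of all genes separated the groups in T/NK nuclei was not counted.

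In tumor nuclei the 8 genes together stood at 344, 247 and 238 CPM in CO and 284, 82.6 and 235 CPM in KO. KO replicate 2 was the lowest and the other libraries overlapped. Here edgeR called 0 of 12969 genes (0%) and DESeq2 called 31, none of them a member, and 877 genes had an unadjusted p under 0.05 in edgeR. The 7 members tested had a median log2 fold change of −0.43 with 6 below 0, none had KO libraries all below CO (5.78% of all genes did), and H2-DMa was at 0.03 (SE 0.18). Without KO replicate 1, 1793 of 13107 genes were called lower (13.7%), among them H2-DMb1 (−1.58, SE 0.33, edgeR Benjamini-Hochberg adjusted p = 0.028) as the only member of 7. Its tumor-nucleus levels were 27.5, 21.5 and 17.5 CPM in CO and 28.0, 4.79 and 9.61 CPM in KO. In tumor nuclei the gauge genes summed to 667, 621 and 445 CPM in CO and 861, 180 and 475 CPM in KO, so KO replicate 1 was highest and KO replicate 2 lowest on that sum too, and the part of free RNA was not tested. Over all kept nuclei 0 of 13662 genes passed in edgeR (0%) and 10 passed in DESeq2, none of them a member, and 661 genes had an unadjusted p under 0.05 in edgeR. The 8 members had a median of −0.49 there, and 0 of them had KO libraries all below CO, beside 5.13% of all genes.

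The second question was how the myeloid classes differed within a library. Ccr2-positive nuclei held more class II transcripts than Mrc1-positive nuclei of the same tumors, except in KO replicate 3. There the 8 genes summed to 1528 CPM in Ccr2-positive and 1591 CPM in Mrc1-positive nuclei. By edgeR with library as a block, 138 of 6412 genes were called higher (2.15%) and 141 lower (2.2%), and 6 of the 7 members tested were called higher. Cd74 was higher by 1.41 on the log2 scale (SE 0.16, Benjamini-Hochberg adjusted p = 4.4e-14), H2-Ab1 by 1.38 (SE 0.17) and H2-Aa by 1.24 (SE 0.17). H2-Eb1 was higher by 1.16 (SE 0.17), H2-DMb1 by 0.83 (SE 0.22, edgeR adjusted p = 0.0058) and Ciita by 0.73 (SE 0.18, adjusted p = 0.0027). H2-DMa, at 0.83 (SE 0.30), did not pass (adjusted p = 0.097).

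Ciita was the only member higher in Ccr2-positive than in Mrc1-positive nuclei in 6 of 6 libraries, which 2.51% of all genes were. It stood at 380, 357 and 543 CPM in CO and 228, 488 and 294 CPM in KO, against the Mrc1-positive values given above. In KO replicate 3 Cd74, H2-Aa, H2-Ab1 and H2-Eb1 were lower in Ccr2-positive than in Mrc1-positive nuclei. There H2-Ab1 was 140 CPM in Ccr2-positive and 228 in Mrc1-positive nuclei and Cd74 was 421 and 434 CPM. H2-Aa was 322 and 323 CPM and H2-Eb1 was 280 and 289 CPM. Cd74, H2-Ab1, H2-Aa, H2-Eb1 and Ciita were called higher under every alternative tried. The call of H2-DMb1 was lost without KO replicate 1 (0.42), without CO replicate 2 (0.75), with DESeq2 (0.55) and with nuclei of at least 1000 UMIs (0.69), and H2-DMa was called without KO replicate 3 (0.96, edgeR adjusted p = 0.049). Of the 9 gauge genes tested 3 were called higher in Ccr2-positive nuclei, with a median log2 difference of 0.50, and of 9 interferon-induced genes 3 were called higher, with a median of 0.66. Their part in the difference was not tested.

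Dendritic nuclei were chosen by markers of cells specialized in presentation, and 5 of 6 members tested had log2 differences of 0.81 to 1.05 over Mrc1-positive nuclei without passing the test. By edgeR 148 of 3641 genes were called higher (4.06%) and 238 lower (6.54%), among them 0 of 6 members, and DESeq2 called 487 genes and also 0 members. The log2 difference was 1.05 for Ciita (SE 0.39, edgeR Benjamini-Hochberg adjusted p = 0.086), 0.94 for Cd74 (SE 0.43), 0.90 for H2-Ab1 (SE 0.43), 0.85 for H2-Eb1 (SE 0.39), 0.81 for H2-Aa (SE 0.39) and 0.05 for H2-DMb1 (SE 0.50), and 5 of these 6 had an unadjusted p under 0.05. No member was higher in 6 of 6 libraries (3.35% of all genes were). Ciita stood at 125, 944 and 1039 CPM in CO and 522, 349 and 198 CPM in KO, and CO replicate 1 was the 1 library below its Mrc1-positive level. H2-Aa stood at 313, 472 and 645 CPM in CO and 1269, 77.5 and 425 CPM in KO.

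This dendritic result depended on the gate and on libraries. With 1 more marker UMI required, 65 dendritic nuclei were left, 192 of 3675 genes were called higher (5.22%) and 5 of 7 members were among them. Under edgeR with Benjamini-Hochberg adjustment these were Ciita (1.46, adjusted p = 2.9e-04), H2-Ab1 (1.23, adjusted p = 0.0060), Cd74 (1.18, adjusted p = 0.0060), H2-Eb1 (1.09, adjusted p = 0.014) and H2-Aa (1.03, adjusted p = 0.025). Ciita alone was also called without CO replicate 1 (1.39), without KO replicate 3 (1.32) and with DESeq2 size factors in edgeR (1.17). Of 9 gauge genes 2 were called lower in dendritic nuclei and 0 higher, with a median of −1.10. Without KO replicate 1, the library with the highest Cd74, H2-Aa, H2-Ab1 and H2-Eb1 levels in dendritic nuclei, the members' median difference was 0.36 in place of 0.87.

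**Figure D3:**
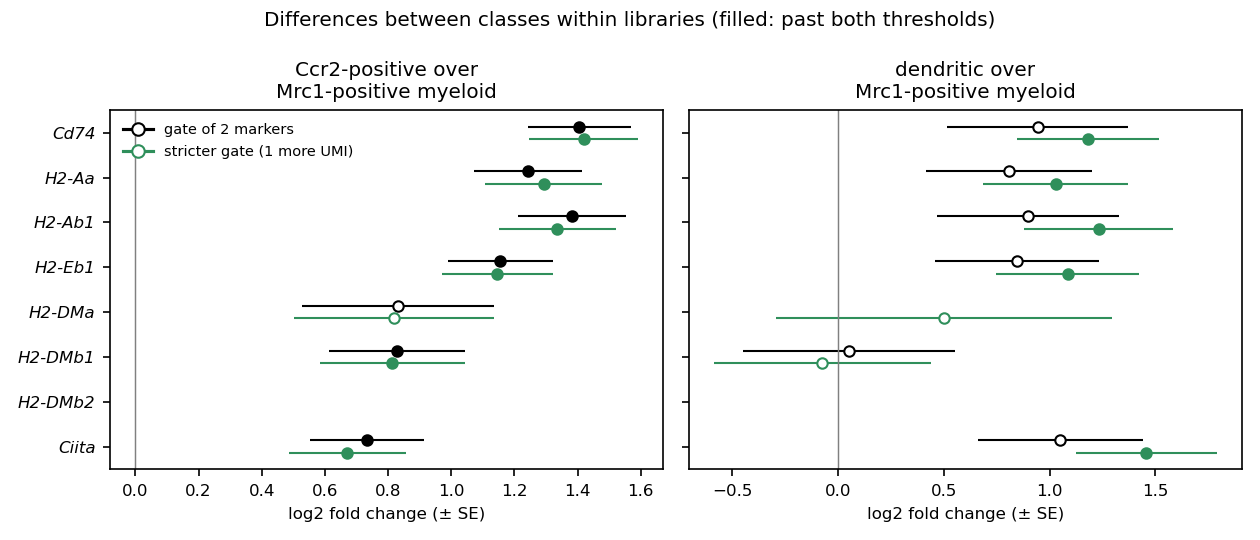
Log2 fold change of each member (points, bars are SE, edgeR with library as a block) in Ccr2-positive over Mrc1-positive nuclei and in dendritic over Mrc1-positive nuclei, with the standard gate (black) and with 1 more marker UMI (green), filled where both thresholds were passed. On the left 6 of 7 members are filled under each gate, and on the right 0 of 6 are filled under the standard gate and 5 of 7 under the stricter one.

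Within the dendritic class the members were unevenly held. The 77 nuclei with a UMI of the type 1 markers (Xcr1, Clec9a, Wdfy4, Batf3) held 5663 CPM of the 8 genes together, and the 16 without one held 825 CPM. By the type 2 markers the order was the other way, with 3777 CPM in 31 nuclei with a UMI and 4872 CPM in 62 without. Both splits pooled nuclei over libraries, and their levels by library were not counted. The 825 CPM rested on 37 member UMIs, and KO replicate 1 alone held 327 member UMIs of the class. The splits by type 1, type 2 and maturation markers divide the same nuclei, so they are not separate observations. The maturation markers Ccr7, Ccl22, Il4i1 and Fscn1 are known from cells on the way to lymph nodes. A single UMI of any of them was enough here, which does not establish such a state. The 24 nuclei with such a UMI held 952 CPM, and the 69 without one held 6603 CPM. Of the 66147 UMIs behind the 952 CPM, 5 nuclei of CO replicate 1 held 22210 and 2 nuclei of KO replicate 2 held 19370. The nuclei with a maturation marker were lower in 5 of 6 libraries. The exception was CO replicate 3, with 5508 CPM in 4 nuclei against 3259 CPM in 12. These numbers of nuclei per library ran from 1 to 20 and the difference was given no test.

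The share of nuclei with a member UMI was compared at equal depth. Thinned to 1000 UMIs, 85.6% of 320 Ccr2-positive nuclei held a UMI of the 8 genes (exact 95% binomial interval 81.3 to 89.3%), as did 72.4% of 901 Mrc1-positive nuclei (69.3 to 75.3%) and 71.9% of 64 dendritic nuclei (59.2 to 82.4%). The share was 51.8% of 199 T/NK nuclei (44.6 to 58.9%), 35.4% of 48 endothelial nuclei (22.2 to 50.5%) and 22.1% of 7988 tumor nuclei (21.2 to 23.0%). Unthinned, tumor nuclei reached 69.1% at a median of 5274 UMIs, against 57.8% of T/NK nuclei at a median of 1019 and 81.6% of Mrc1-positive nuclei at a median of 1382. Shallower nuclei were left out by thinning, 116 Ccr2-positive, 206 Mrc1-positive, 29 dendritic, 185 T/NK, 25 endothelial and 574 tumor nuclei. The intervals cover counting error only and pool nuclei over libraries.

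Ciita separated the classes more sharply. After thinning it was found in 26.6% of dendritic nuclei (exact 95% interval 16.3 to 39.1%), 23.4% of Ccr2-positive nuclei (18.9 to 28.5%) and 15.0% of Mrc1-positive nuclei (12.7 to 17.5%). It was found in 4.52% of T/NK nuclei (2.09 to 8.41%), in 0.376% of tumor nuclei (0.254 to 0.536%) and in 0 of 48 endothelial nuclei, which allows a share of up to 6.25% (3 counts) or, by the exact interval, 7.40%. Unthinned it was found in 36.6%, 29.6% and 21.7% of the 3 presenting classes, 4.17% of T/NK nuclei, 2.71% of tumor nuclei and 1.37% of endothelial nuclei. The tumor share of Ciita was below the T/NK share. The limit for endothelial nuclei after thinning lay above the T/NK share of 4.52%, so these 2 classes have no order. No expression is read from the tumor and endothelial shares. The classes were not matched in free RNA, since the gauge genes summed to 799 to 2279 CPM in T/NK nuclei and 180 to 861 CPM in tumor nuclei.

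Members were concentrated in some nuclei of each class. The 10% of Mrc1-positive nuclei with most member UMIs held 40.7% of the class's member UMIs and the same 10% of Ccr2-positive nuclei held 47.6%, with up to 223 UMIs in 1 Ccr2-positive nucleus of CO replicate 1. Between 14.2% and 15.2% of Mrc1-positive nuclei of the CO libraries held no UMI of the 8 genes, and 24.2%, 36.1% and 14.1% of those of the KO libraries. Nuclei with and without a Ciita UMI were compared for the other 7 genes. After thinning, the mean was 2.96 against 1.65 UMIs in Mrc1-positive nuclei with and without Ciita, higher in 6 of 6 libraries. In Ccr2-positive nuclei it was 8.15 against 5.31 UMIs, higher in 5 of 6, with CO replicate 1 the exception at 9.30 against 13.3 UMIs. In dendritic nuclei it was 7.82 in 17 nuclei against 4.19 UMIs in 47, higher in 4 of 6, with KO replicate 1 (10.6 against 20.6 UMIs) and KO replicate 3 (1.00 against 1.76 UMIs) the exceptions. Some of these libraries held few nuclei with Ciita. CO replicate 1, KO replicate 2 and KO replicate 3 each held 1 such dendritic nucleus, and KO replicate 2 held 2 such Ccr2-positive nuclei against 3 without.

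The third question was what the low counts in tumor nuclei amounted to. Tumor nuclei held 80.8% of all UMIs kept and 30.9% of the Cd74, 31.3% of the H2-Ab1, 32.0% of the H2-Aa and 29.3% of the H2-Eb1 UMIs. Cd74 stood at 138, 91.8 and 83.2 CPM in CO and 109, 14.1 and 72.6 CPM in KO tumor nuclei. The ratio of the tumor to the myeloid level within a library ran from 0.040 to 0.136 for Cd74, 0.040 to 0.108 for H2-Aa, 0.046 to 0.176 for H2-Ab1 and 0.049 to 0.123 for H2-Eb1. For H2-DMb1 it ran from 0.081 to 0.155, and for Ciita from 0.011 to 0.034. In 8 of the 9 gauge genes with enough counts the ratio ran from 0.017 to 0.186, and KO replicate 2 had the lowest ratio of every one. KO replicate 2 was also lowest, and KO replicate 3 highest, for Cd74, H2-Aa, H2-Ab1, H2-Eb1, H2-DMb2 and Ciita. Pooled over libraries, the members' ratios therefore lay within or below the range of the gauge genes, apart from H2-DMa. Within libraries H2-DMb1 was an exception too. Its ratio was 0.114, 0.119, 0.155 and 0.081 in CO replicates 1 and 2 and KO replicates 1 and 2. The highest of the 8 gauge genes there was 0.092, 0.080, 0.092 and 0.060. In CO replicate 3 and KO replicate 3 it lay within their range. Tumor nuclei held 44.2% of the H2-DMb1 UMIs.

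H2-DMa differed from the other 7. Its tumor level was 40.6, 43.4 and 33.7 CPM in CO and 46.1, 31.9 and 37.4 CPM in KO, with an SD of 5.55 around a mean of 38.8 CPM over the 6 libraries, and KO replicate 2 was not set apart. Its tumor-to-myeloid ratio ran from 0.490 to 1.28 with a median of 0.903, above the highest value of every other member in each library. Ctsb was the gauge gene with the nearest ratio, at 0.258 to 0.481. Tumor nuclei held 79.4% of all H2-DMa UMIs, close to their 80.8% of all UMIs. Over the 30 sums of the 5 classes, the correlation with the mean of the other 7 members was 0.49 for H2-DMa, against 0.91 for Cd74 and H2-Eb1, 0.90 for H2-Ab1, 0.83 for H2-Aa, 0.78 for H2-DMb1, 0.73 for Ciita and 0.58 for H2-DMb2. The points share libraries, and the value is a description. Brd2, a chromatin reader made in most cells, overlaps the first part of H2-DMa on the other strand. It was counted at 62.1 to 93.7 CPM in tumor and 58.8 to 82.0 CPM in myeloid nuclei of the 6 libraries. In CO replicate 2 and KO replicates 2 and 3 both genes were higher in tumor nuclei, in CO replicate 3 Brd2 alone. In KO replicate 1 Brd2 was 62.1 CPM in tumor and 71.3 CPM in myeloid nuclei, and H2-DMa 46.1 and 94.2 CPM. Whether molecules of Brd2 were counted as H2-DMa was not tested.

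**Figure D4:**
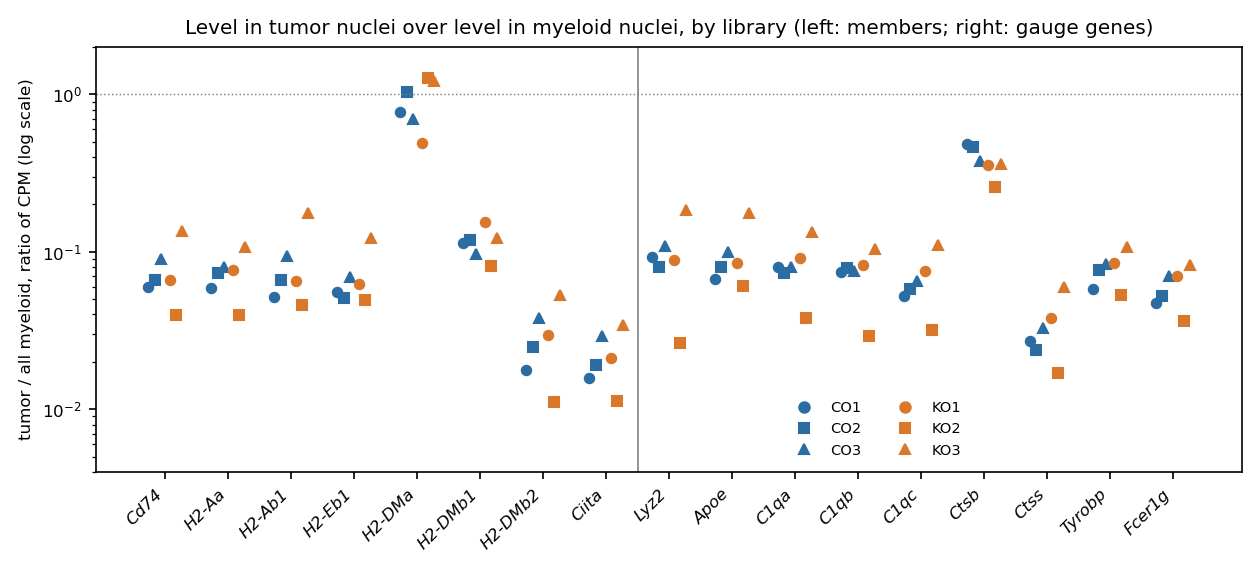
Ratio of CPM in tumor nuclei to CPM in all myeloid nuclei of the same library (log axis) for the 8 genes (left) and 9 macrophage genes that gauge free RNA (right), with 1 point per library. H2-DMa lies at 0.490 to 1.28, the other members at 0.011 to 0.176, and the gauge genes at 0.017 to 0.186 except Ctsb at 0.258 to 0.481.

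Interferon-responding tumor nuclei were set against the others, since interferon gamma induces class II genes. Tumor nuclei with at least 3 UMIs of at least 2 of 10 interferon-induced genes (3791 nuclei) held 323, 235 and 236 CPM of the 8 genes together in CO and 267, 75.4 and 190 CPM in KO. All other tumor nuclei (4771) held 392, 278 and 241 CPM in CO and 309, 91.5 and 343 CPM in KO. Interferon-positive nuclei were lower in 6 of 6 libraries, by a mean of −54.7 CPM (SD 53.3), with an exact two-sided sign-flip permutation p of 0.03125, the smallest that 6 libraries allow. KO replicate 3 differed most (−154 CPM), and without it the mean was −34.9 CPM, lower in 5 of 5 libraries. Their median depth was 6384 to 12516 UMIs against 1081 to 5443 UMIs, and nuclei were split on their full counts in every setting. With every nucleus thinned to 1000 UMIs the difference was −26.5 CPM, lower in 5 of 6 libraries (exact permutation p = 0.375) and −53.4 CPM without CO replicate 3, the exception, and with 1 more interferon UMI required it was −41.5 CPM (exact permutation p = 0.0625), so only the first setting passed 0.05. Ciita was 4.86 CPM in the interferon-positive and 4.61 CPM in the other tumor nuclei. The gauge genes summed to 661, 600 and 423 CPM in CO and 831, 163 and 387 CPM in KO in interferon-positive nuclei. In the others they summed to 681, 679 and 468 CPM in CO and 905, 200 and 687 CPM in KO, higher in each library. Summed myeloid markers were lower in interferon-positive nuclei only in KO replicates 2 and 3. The part of free RNA was not tested.

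Endothelial cells can make class II molecules, and the counts in this class were few. Cd74 was counted with 47 UMIs in all 73 nuclei, at 348, 243 and 333 CPM in CO and 260, 58.3 and 434 CPM in KO. Ciita had 1 UMI, in KO replicate 2, and H2-DMb2 had 0 of the 157574 UMIs of the class, which allows up to 19.04 CPM (3 counts). By edgeR 626 of 12015 genes were called higher than in tumor nuclei (5.21%) and 1926 lower (16%), with a median of −0.72 over all genes, and with DESeq2 size factors the split was 825 higher and 725 lower, with a median of −0.25. H2-Aa (1.61, SE 0.47, edgeR adjusted p = 0.0057) and Cd74 (1.14, SE 0.36, adjusted p = 0.012) were called higher, 2 of 7 members. H2-Ab1 was at 1.17 (adjusted p = 0.063), and was called without KO replicate 2 (1.34). Without KO replicate 3, which held 14 of the 24 H2-Aa UMIs, no member was called (H2-Aa 1.00, Cd74 0.88). The call of Cd74 was also lost without CO replicate 3 (1.09) and that of H2-Aa with the stricter gate (1.15), and no member was called higher with nuclei of at least 1000 UMIs (Cd74 0.82) or under the limits of 500 genes and 5% mitochondrial counts (Cd74 0.51), where H2-DMa was called lower (edgeR adjusted p = 0.023) with 44 endothelial nuclei left. Of 10 gauge genes 4 were also called higher in endothelial nuclei, with a median of 1.12, and the part of free RNA was not tested. On average endothelial Cd74 lay below the T/NK level, but in KO replicate 3 it was above it (434 against 336 CPM), as was H2-Aa (380 against 163 CPM).

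Other genes of the pathway formed a list of 28, of which 27 were analysed here (all but Ifi30). Between KO and CO, edgeR and DESeq2 called none of them in Mrc1-positive nuclei, where 19 were tested by edgeR with a median log2 fold change of −0.11 and 3 had an unadjusted p under 0.05. The largest in size were Nfya, a subunit of NF-Y, at −1.08 (SE 0.37), the interferon receptor kinase Jak2 at 0.97 (SE 0.30) and the costimulatory receptor Cd40 at 0.84 (SE 0.33), all with an edgeR adjusted p of 0.735 or more. In Ccr2-positive against Mrc1-positive nuclei, 3 of 20 were called higher and 0 lower. These were Jak2 (1.04, SE 0.21), the interferon gamma receptor chain Ifngr1 (0.80, SE 0.20) and Ctss (0.61, SE 0.15), the cathepsin that cuts the invariant chain. Ctss was also 1 of the 10 gauge genes, so the 2 lists are not independent. In dendritic against Mrc1-positive nuclei, 2 of 17 were called higher, Jak2 (1.97, SE 0.35) and the T-cell costimulator Cd80 (1.55, SE 0.45), and 1 lower, the lysosomal protease Lgmn (−1.62, SE 0.39). In endothelial against tumor nuclei, 3 of 22 were called higher, where 5.21% of all genes were, and 2 lower, where 16% were. Among them Cd40 (2.62) and Ctss (1.37) were higher and Cd80 (−2.66) and Nfyc (−1.48) lower.

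The genes whose levels most resembled the mean of the 8 members were sought among 8264 genes over the same 30 sums. Ctss, which is also a gauge gene, came first (r = 0.88), with median levels of 1150 CPM in Mrc1-positive, 1824 in Ccr2-positive, 695 in dendritic, 97.8 in endothelial and 41.8 CPM in tumor nuclei. Klrk1, Rasgrp4, Cd244a and Dennd1c followed at 0.87, then Spi1, the transcription factor PU.1 of myeloid cells, Arhgap30, the chemokine receptor Ccr1 and Actr3 at 0.86, and the integrin adaptor Fermt3 at 0.85. The sums share 6 libraries and the same nuclei classes, so these values are descriptions and their order within 0.85 to 0.88 carries no weight.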

How the data were processed

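Nuclei of frozen tumors were sequenced by the authors with 3′ droplet chemistry (Chromium, v3.1), and some samples, not named, received extra washes. The files hold whole-number UMI counts for each gene in each barcode, as deposited. Per the labels, the authors counted with Cell Ranger 3.0.2 on GRCm38, while the file headers give another version. The methods describe a correction for free RNA, which cannot be seen in whole numbers, and the handling of intronic reads is not given in the sources used here.

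Of 18865 barcodes, 18014 had 100 to 7500 genes and under 20% mitochondrial counts, the limits of the study. Scrublet (scanpy 1.11.5) replaced the study's doublet caller, and the highest scores were removed at 0.8% per 1000 barcodes, 500 nuclei in all. Groups and replicate numbers came from the titles. Libraries of a group differed by a chi-square per degree of freedom of 8.75 to 202, so none was a copy. That the replicates are separate mice is not stated in the labels, so p-values measure the spread between these libraries. Kept libraries held 7809921 to 16892836 UMIs.

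A nucleus joined the class with most marker UMIs if at least 2 distinct markers were present and tumor markers were under 50 per 10000 UMIs. Tumor nuclei needed 75 per 10000 UMIs and 3 markers. The classes are rebuilt, not the study's, and 4087 nuclei stayed unassigned and 311 were mixed. CPM divide a gene's counts by all counts of the class in that library. Sums per library were tested with edgeR 4.0.16 (R 4.3.3; quasi-likelihood, TMM, default low-count filter, Benjamini-Hochberg over all genes tested), with at least 10 nuclei in every library for KO against CO, and with library as a block and no such minimum between classes. The alternatives were DESeq2 (1.42.0), its size factors in edgeR, no low-count filter, a stricter gate, no doublet removal, at least 500 genes with under 5% mitochondrial counts, at least 1000 UMIs, a replicate block, thinning and leaving out each library. SE is the log2 fold change over the root of F. Named genes were the 8 members, pathway genes called or among the 3 largest changes, the 10 most alike by Pearson correlation of log2 (CPM + 5) among genes of at least 20 CPM on average, and Slc16a7. Brd2 was added after its values were seen. A pathway result is not reported here. Members, lists and classes were chosen with earlier results of these data known. Scripts were tested on simulated counts.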

Additional observations from a re-analysis of the deposited data

How the results depend on the processing

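Among summary values under the alternatives, 106 stayed within 1.5 times or on their side of the threshold, 19 moved further and 8 lost their call. Genes called between KO and CO rose in Mrc1-positive nuclei from 0 to 33 without the low-count filter and ranged from 0 to 490 as each library was left out. In all myeloid nuclei they rose to 7 with DESeq2 and 4 without the filter and ranged from 0 to 1541, and in tumor nuclei they rose to 31 with DESeq2 and ranged from 0 to 2613. The high ends came without KO replicate 1. Over all kept nuclei DESeq2 called 10. Genes called between Ccr2-positive and Mrc1-positive nuclei fell from 279 to 134 with DESeq2 and 179 with at least 500 genes and under 5% mitochondrial counts, and ranged from 184 to 322 as libraries were left out. Between dendritic and Mrc1-positive nuclei 386 became 744 without the filter, with a range of 215 (without CO replicate 1) to 579 (without KO replicate 2). Between endothelial and tumor nuclei 2552 became 1519 with DESeq2 and 1550 with its size factors, with a range of 1599 to 2083. The untested log2 ratio of summed members in dendritic nuclei ranged from −1.10 (without KO replicate 1) to 0.83. The interferon difference became −41.5 CPM (exact permutation p = 0.0625) with the stricter gate and −26.5 CPM (exact permutation p = 0.375) thinned, and ranged from −64.6 (without CO replicate 3) to −34.9 CPM (without KO replicate 3) as libraries were left out (added after the data were seen), where 5 libraries cannot give an exact permutation p below 0.0625. The cause was not tested.

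Members changed direction in 25 values and kept it in the others. Between KO and CO, leaving out each library moved H2-DMa between −0.62 and 0.071 in Mrc1-positive nuclei, −0.65 and 0.49 in all myeloid nuclei, −0.10 and 0.11 in tumor nuclei and −0.16 and 0.16 over all kept nuclei. It moved H2-DMb2 between −1.17 and 0.32 in all myeloid and −1.39 and 0.23 over all kept nuclei, and H2-Aa between −0.56 and 0.10 in tumor and −0.63 and 0.17 over all kept nuclei. Under the limits of 500 genes and 5% mitochondrial counts H2-DMb2 was 0.0019 in all myeloid nuclei and H2-DMa −0.17 in tumor nuclei. In dendritic nuclei H2-DMb1 was −0.36 without the filter, −0.074 with the stricter gate, −0.42 under those limits, −0.085 with at least 1000 UMIs, and between −0.56 and 0.45 as libraries were left out. Endothelial Ciita, which rested on 1 UMI, was 0.82 with DESeq2 and between −7.98 and 0.20 as libraries were left out.

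The replicate block called 0 genes by edgeR in each of the 4 KO and CO tests (490 to 1652 had an unadjusted p under 0.05), with member medians of −0.89 (Mrc1-positive), −0.76 (all myeloid), −0.59 (tumor) and −0.74 (all kept), and H2-DMa in all myeloid nuclei was −0.036. Samples of like number did not deviate together throughout. Their correlations were 0.24, −0.07 and 0.17 in Mrc1-positive nuclei and 0.71, −0.46 and 0.46 in tumor nuclei, and CO replicate 2 correlated best with KO replicate 1. With 3 libraries per group these values cannot show whether libraries of like number share more than the number. Depth limits H2-DMb2 (157 UMIs in all) and the dendritic and endothelial sums.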
